A study of Mus musculus with 3 samples.

Results

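The molecular chaperones and heat-shock proteins were examined as a group of 88 genes among the 31040 genes of the count table. Members were taken by their gene symbols, from a group proposed with earlier results of these data known. They were the 3 HSP90 genes, 11 HSP70 genes, 3 HSP110 genes, the 2 mitochondrial chaperonin genes Hspd1 and Hspe1, 9 genes of the cytosolic chaperonin CCT, 9 small heat-shock protein genes including Cryab, 6 BAG genes and 4, 13 and 28 J-domain genes of the DNAJA, DNAJB and DNAJC classes. The symbol rule also took in Hspb11, whose product is known as an intraflagellar transport protein rather than as a chaperone.

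Nuclei had been isolated from lumbar spinal cords at 90 days of age, from 12 mice, namely 6 SOD1G93A mice of the strain B6.Cg-Tg(SOD1*G93A)1Gur/J and 6 wild-type (WT) C57BL/6J littermates, with 3 females and 3 males of each genotype. The transgene is human SOD1 under its own promoter with a mutation that causes familial amyotrophic lateral sclerosis, and no mice with a non-mutant human SOD1 transgene were among the 12. Nuclei of 1 mouse of each sex and genotype were marked with hashtags and sequenced together, which gave the 3 pools A, B and C. According to the paper, each combination of sex and genotype had its own hashtag throughout, so group and hashtag cannot be told apart. Nuclei rather than whole cells were measured, so the values count RNA in the nucleus, spliced or not. Some RNA from outside the nucleus came along, as the mitochondrial percents given below show.

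Chaperones bind unfolded or partly folded proteins. HSP70 proteins hold and release clients in cycles of ATP hydrolysis, J-domain proteins hand clients to them, HSP110 and BAG proteins exchange their nucleotide, HSP90 completes the folding of many signalling proteins, chaperonins fold proteins inside a closed chamber, and small heat-shock proteins keep damaged proteins from aggregating. The heat-shock factor Hsf1 switches on a subset of these genes (among them Hspa1a, Hspa1b, Hsph1, Dnajb1, Hsp90aa1, Hspb1, Cryab and Bag3) when misfolded protein accumulates, and motor neurons are known for a high threshold of this response. Mutant SOD1 is itself a protein that misfolds and aggregates.

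Heat-shock factors bind inverted repeats of the unit GAA and its complement TTC, so the promoters of the members on which the results below turn were searched for the letters GAANNTTC and TTCNNGAA, which each read the same on both strands. Shown here, 5′ to 3′ on the coding strand, are the bases from 250 to 26 before the RefSeq start (GRCm38.p6) of a gene called in astrocytes and of 3 genes called in endothelial cells. Capitals mark the matches. The stretches are chr5:135887669-135887893 (plus strand) for Hspb1, chr17:34972182-34972406 (minus) for Hspa1a, chr17:34959264-34959488 (minus) for Hspa1b and chr5:149636362-149636586 (minus) for Hsph1.
Hspb1: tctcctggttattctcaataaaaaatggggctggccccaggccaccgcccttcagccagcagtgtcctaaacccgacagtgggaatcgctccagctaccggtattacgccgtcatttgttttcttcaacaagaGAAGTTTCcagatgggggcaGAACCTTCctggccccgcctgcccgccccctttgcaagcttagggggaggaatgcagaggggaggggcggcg
Hspa1a: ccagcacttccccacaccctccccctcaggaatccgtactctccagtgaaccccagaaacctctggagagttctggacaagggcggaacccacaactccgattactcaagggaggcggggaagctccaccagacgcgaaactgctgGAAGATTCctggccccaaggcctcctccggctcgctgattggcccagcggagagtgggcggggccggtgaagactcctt
Hspa1b: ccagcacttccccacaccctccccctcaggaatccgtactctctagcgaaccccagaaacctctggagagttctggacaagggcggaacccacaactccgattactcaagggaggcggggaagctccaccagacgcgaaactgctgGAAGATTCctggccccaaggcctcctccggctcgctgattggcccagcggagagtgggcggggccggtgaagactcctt
Hsph1: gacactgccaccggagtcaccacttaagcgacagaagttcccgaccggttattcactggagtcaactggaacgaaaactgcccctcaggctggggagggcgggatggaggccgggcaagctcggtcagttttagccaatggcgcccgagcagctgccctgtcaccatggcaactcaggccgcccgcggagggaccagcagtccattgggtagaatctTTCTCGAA
Hspb1 held GAANNTTC with its first base 117 and 97 bases before the start, Hspa1a and Hspa1b both held it 104 bases before, and Hsph1 held TTCNNGAA 33 bases before. In Dnaja1, called in astrocytes, GAANNTTC began 124 bases before the RefSeq start. The stretches of Hspa1a and Hspa1b differed at 2 of 225 bases, and since the transcripts are near-identical too, the split of reads between this pair is uncertain. Over windows of 300 bases (250 before and 50 after the start), 17 of the 71 members in the promoter table (23.9%) held GAANNTTC against 9.04% of 27025 genes, and 7 (9.86%) held TTCNNGAA against 9.6%. The letters of 3 units in a row, GAA, TTC and GAA or TTC, GAA and TTC with NN between them, occurred in 4 members (5.63%), namely Dnajb6, Hspd1, Hspe1 and Hsph1, against 0.662% of genes. The table holds no entry for Hsp90aa1, Hsp90ab1, Hspa8, Hspa9 and Cryab. A match describes letters and not binding.

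The 14662 nuclei held 206486779 unique molecular identifiers (UMIs, tags of single RNA molecules), of which 549180 fell on members, from 5 for Hspb7 to 64414 for Dnajc6 with a median of 3512.5. UMIs were summed per mouse within the authors' 10 cell types and 9 neuron sub-types, and 74 members had enough counts to be tested in at least 1 cell type, 23 of them in 8 or more, while 14 were tested in none (Cct8l1, Dnajb3, Dnajb7, Dnajb8, Dnajb13, Dnajc5g, Dnajc22, Dnajc25, Hspa1l, Hspb2, Hspb3, Hspb6, Hspb7 and Hspb9). Levels are given as CPM, the UMIs of a gene per 1000000 UMIs of the mouse's nuclei of that type with scaled library sizes, and a gene is called at a Benjamini-Hochberg adjusted p under 0.1 over all genes tested in that cell type with limma. Fold changes are log2 values ± SE. Members and pathway genes were compared with themselves across mice and cell types, never with each other, since levels were not set per length. Cell types carry the names in the authors' annotation, and in the nuclei labelled microglia or Schwann and meningeal cells the markers of other types exceeded their own, as given with the levels in WT mice. Marker sums are in CPM without scaling factors. They were not set per length either, so sums of different marker lists compare only roughly. Reads assigned to Sod1 checked the genotypes: in motor neurons they ranged from 6.09 to 42.5 CPM in WT mice and from 62.6 to 698 CPM in SOD1G93A mice.

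In motor neurons, 3 members were higher in SOD1G93A than in WT mice, both cytosolic HSP90 genes and the mitochondrial HSP70 gene Hspa9, and none was lower. Motor neurons were few, with 4 to 11 nuclei per WT mouse and 1 to 6 per SOD1G93A mouse, and 27658 to 651446 UMIs per mouse. Of the 34 members tested there, 3 were called higher (8.82%) against 1.43% of all 5118 genes, and 0 lower against 1.64%. At an unadjusted p under 0.05, 9 were higher and 0 lower, against 7.44% and 8.48% of all genes. The filter on low counts bears on these shares, because 13 of the 34, Hsp90aa1, Hspa8 and Hspa9 among them, passed it only through the SOD1G93A mice, so that neither the counts nor the median over members that passed lend support of their own. As a description, that median log2 fold change was 0.26 against 0.00 for all genes, and without scaling factors these were 0.39 and 0.14.

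Hsp90aa1 encodes the stress-inducible cytosolic HSP90. It ranged from 12.2 to 42.7 CPM in WT mice (median 28.9) and from 31.3 to 245 CPM in SOD1G93A mice (median 80.0). The mean was 28.5 ± 11.2 against 101 ± 78.3 CPM (SD, n = 6 each), and the log2 fold change was 1.57 ± 0.32 with an adjusted p of 0.0229. The groups overlapped only at the single nucleus of the SOD1G93A female of pool C, which had 1 UMI, and in all 6 pairs of mice of the same pool and sex the SOD1G93A mouse was higher. The highest mouse was the SOD1G93A male of pool A, with 112 UMIs. All 23 SOD1G93A nuclei held at least 1 UMI of the gene, against 26 of 44 WT nuclei, with medians of 60146 and 43895 UMIs per nucleus. By pool, the means were 183 against 30.5 CPM in A, 53.7 against 38.1 in B and 66.0 against 16.8 in C.

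Hsp90ab1, the constitutive cytosolic HSP90, lay between 15.2 and 58.4 CPM in WT mice (median 37.7) and between 0 and 239 CPM in SOD1G93A mice (median 76.6). Its log2 fold change was 1.35 ± 0.32 (adjusted p = 0.0518), with 5 of 6 pairs higher. The exception was again the SOD1G93A female of pool C, which had 0 UMIs. The means by pool were 212 against 44.4, 60.9 against 48.8 and 41.7 against 24.8 CPM in A, B and C. Hsp90b1, the HSP90 of the endoplasmic reticulum, was tested and not called.

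Among HSP70 genes, Hspa9 (mortalin, which pulls proteins into mitochondria) ranged from 18.2 to 34.5 CPM in WT mice (median 27.3) and from 42.3 to 188 CPM in SOD1G93A mice (median 58.2). The groups did not overlap, and the log2 fold change was 1.10 ± 0.29 (adjusted p = 0.0683). The highest value, 188 CPM, stood for 6 UMIs in 1 nucleus, and the other 5 SOD1G93A mice reached 85.4 CPM. Hspa8, the constitutive HSP70 that also strips clathrin coats, went from 8.59, 19.1 and 52.5 CPM (lowest, median and highest) in WT mice to 31.3, 82.2 and 265 CPM in SOD1G93A mice. Its estimate, 1.70 ± 0.52, was above those of the called genes, but its adjusted p was 0.144. In pool B the means were 34.2 CPM in SOD1G93A and 37.8 CPM in WT mice, while in pools A and C they were 207 against 25.5 and 80.4 against 11.9 CPM. The edgeR and DESeq2 fits called it, with adjusted p of 0.0819 and 0.0323. Over all 11 alternatives Hspa8 was called in 4, with adjusted p from 0.000246 to 0.673. It stayed uncalled in 10 of 12 fits that left out 1 mouse, with adjusted p of 0.00449 to 0.388 over the 12. Hspa5 (BiP, the HSP70 of the endoplasmic reticulum) had an estimate of 1.23 and an adjusted p of 0.181.

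The inducible HSP70 gene Hspa1a was too low to be tested in motor neurons. It had no UMI in the 44 WT nuclei, where 3 counts in 2501423 UMIs would be 1.20 CPM, and 15 UMIs in 6 of the 23 SOD1G93A nuclei, or 10.4 CPM over all of them (exact 95% Poisson interval 5.83 to 17.2 CPM). This pooled value was 8.69 times the WT limit, with the counting error of the SOD1G93A count left out. Of the 15 UMIs, however, 12 were in the SOD1G93A male of pool A and 10 of those in 1 nucleus. Without that mouse, 3 UMIs from 3 SOD1G93A mice remained, or 2.93 CPM with an interval of 0.604 to 8.56 CPM that reaches below the WT limit. Both intervals cover counting error only.

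Of the remaining classes, the small heat-shock gene Hspb1 (1.06, adjusted p = 0.239), the chaperonin genes Hspd1 (0.89, 0.171) and Cct8 (1.05, 0.180) and the HSP110 gene Hsph1 (0.80, 0.216) did not pass the threshold. Hspb1 in SOD1G93A mice reached 76.6 and 55.6 CPM in the males of pools A and B but 5.75 CPM in the male of pool C, against 0 to 26.5 CPM in WT mice. The co-chaperone Bag3 stood at 4.29, 33.6 and 49.2 CPM in WT and 31.3, 40.4 and 56.8 CPM in SOD1G93A mice (0.37, adjusted p = 0.578). The 14 DNAJC genes tested, J-domain proteins with varied tasks, had a median of 0.03 and none was called. The lowest estimates were −0.36 for Dnajc24 (adjusted p = 0.634), −0.12 for Dnajc10 (0.913) and −0.03 for Dnajc3 (0.983).

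**Figure D1:**
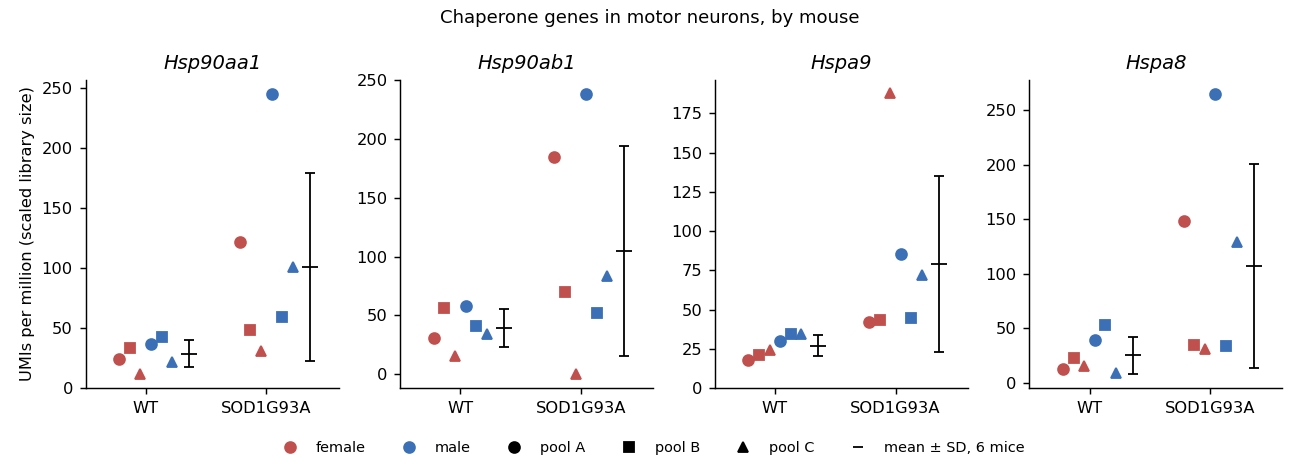
Levels of Hsp90aa1, Hsp90ab1, Hspa9 and Hspa8 in motor neurons, in CPM with scaled library sizes, for each of 6 WT and 6 SOD1G93A mice (red, female; blue, male; circle, square and triangle for pools A, B and C; bar, mean ± SD). The SOD1G93A mice of pool A stand highest for Hsp90aa1, Hsp90ab1 and Hspa8, and for Hspa9 every SOD1G93A mouse lies above every WT mouse.

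Other measures moved with genotype in these nuclei. The SOD1G93A female of pool A had a median mitochondrial percent of 2.03, whereas the other mice of both genotypes had 0.0354 to 0.210. The summed microglia markers (Cx3cr1, Csf1r and Ptprc) were 0 to 26.0 CPM in WT and 7.38 to 81.1 CPM in SOD1G93A mice, where the WT nuclei labelled microglia had 46.6 to 91.2 CPM. The oligodendrocyte markers Mbp and Mog summed to 26.3, 116 and 340 CPM (lowest, median and highest) in WT and 30.0, 222 and 284 CPM in SOD1G93A mice. The motor neuron markers Slit3, Prph and Chat summed to 1097 to 1649 CPM in WT and 680 to 2422 CPM in SOD1G93A mice, against 87.0 to 109 CPM in other WT neurons. The part of the mitochondrial percent was examined only by the fit given next, and that of glial RNA was not tested. With the mitochondrial percent as a covariate only Hspa9 was called (1.27, adjusted p = 0.0853), with 1.43 for Hsp90aa1 (0.112) and 1.11 for Hsp90ab1 (0.267). Without the 2 mice with under 3 nuclei (the SOD1G93A females of pools A and C) no member was called, with 1.40 for Hsp90aa1 (adjusted p = 0.231), 1.21 for Hsp90ab1 (0.303) and 1.06 for Hspa9 (0.308). Without pool A none was called either, and the estimates were 1.03 for Hsp90aa1 (adjusted p = 0.174), 0.69 for Hsp90ab1 (0.445) and 1.10 for Hspa9 (0.121).

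Leaving out 1 mouse at a time kept Hsp90aa1 called in 12 of 12 fits, with adjusted p from 0.00295 to 0.0850. Without the pool term (the block for mice whose nuclei were captured and sequenced together) no member was called. The adjusted p was then 0.107 for Hsp90aa1 and Hspa9 and 0.192 for Hsp90ab1. The number of members called fell from 3 to 1 without the SOD1G93A male of pool A or C, the WT female of pool A or C or the WT male of pool C, and rose to 5 without the SOD1G93A male of pool B. Hsp90ab1 lost its call without any of these 5 mice or the SOD1G93A females of pools A and B, with adjusted p of 0.101 to 0.215. Hspa9 lost it without any of the 5 or the SOD1G93A females of pools B and C or the WT male of pool A, with adjusted p of 0.101 to 0.175.

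Whether the effect of genotype differed between motor neurons and the other neurons of the same mice was tested in 1 fit. Of 66 members, 2 had a larger effect in motor neurons (3.03%), against 0.476% of all 12392 genes. For Hsp90aa1 the effects differed by 1.45 ± 0.37 (adjusted p = 0.0857) and for Hspa8 by 1.67 ± 0.44 (adjusted p = 0.0974). In the other neurons themselves, Hsp90aa1 had a log2 fold change of 0.27 with an adjusted p of 1. The differences for Hspa9 (1.12, adjusted p = 0.135) and Hsp90ab1 (1.13, adjusted p = 0.164) did not pass. Both calls lay near the threshold. Leaving out 1 mouse gave 0 to 4 calls and 2 in only 1 of 12 fits: without the SOD1G93A female of pool B 4 were called, without the SOD1G93A female of pool C or the WT male of pool A 1, and without the SOD1G93A female of pool A, the SOD1G93A male of pool A or C, any WT female or the WT male of pool B or C 0. Against astrocytes, 0 of 49 members differed (1.54% of all genes), with 6 at an unadjusted p under 0.05 (12.2%, against 12.3% of all genes). DESeq2 and edgeR called 0 as well.

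In astrocytes, 3 members were higher in SOD1G93A mice, the small heat-shock genes Hspb1 and Cryab and the J-domain gene Dnaja1, and none was lower. The 12 mice gave 45 to 250 astrocyte nuclei and 294711 to 1743993 UMIs each. Of 55 members tested, 3 (5.45%) were called higher, against 1.38% of all 9347 genes, and 0 lower, against 0.909%. At an unadjusted p under 0.05, 10 were higher (18.2%) and 1 lower (1.82%), against 7.77% and 5.82% of all genes. Only Hspb1, which is 1 of the 3 called, and Bag6 passed the filter through the SOD1G93A mice alone. The count of calls therefore lends no support of its own. The median log2 fold change was 0.18 over the members and 0.02 over all genes.

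Hspb1 encodes HSP27, a small heat-shock protein that guards actin and is found in reactive astrocytes. It lay at 1.88, 5.02 and 10.4 CPM (lowest, median and highest) in WT mice and at 9.17, 15.9 and 24.1 CPM in SOD1G93A mice, 32 and 73 UMIs in all. The log2 fold change was 1.50 ± 0.32 (adjusted p = 0.0166), and all 6 pairs were higher. The 2 SOD1G93A mice of pool C, at 9.17 and 9.68 CPM, were below the highest WT mouse, the female of pool B, and within that pool they stood against 1.88 and 2.24 CPM.

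Cryab encodes αB-crystallin, the small heat-shock protein typical of glia. Its levels of 29.1, 56.7 and 78.1 CPM in WT mice compared with 58.1, 97.1 and 134 CPM in SOD1G93A mice. The log2 fold change was 0.74 ± 0.16 (adjusted p = 0.0176) with 6 of 6 pairs higher. In each pool the mean was higher in SOD1G93A mice (116 against 61.7, 104 against 66.5 and 61.7 against 38.0 CPM). Dnaja1, a J-domain partner of HSP70, went from 20.6, 29.1 and 48.3 CPM to 34.6, 48.5 and 77.3 CPM, a log2 fold change of 0.73 ± 0.19 (adjusted p = 0.0589), again in 6 of 6 pairs.

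The 3 HSP90 genes tested had positive estimates in astrocytes, from 0.48 for Hsp90b1 (adjusted p = 0.200) to 0.79 ± 0.21 for Hsp90aa1 (adjusted p = 0.104), and none was called with limma. The edgeR fit called Hsp90aa1 (adjusted p = 0.0711), as did limma with no filter on low counts (0.0295), with TMM factors (0.0982) or without the robust option (0.0664), and 5 of the 12 fits that left out 1 mouse, with adjusted p of 0.0310 to 0.308 over the 12. Hsp90aa1 had 33.6, 63.5 and 104 CPM in WT and 66.8, 98.8 and 212 CPM in SOD1G93A mice and was higher in 5 of 6 pairs. Among other stress-inducible genes, none called, Hsph1 had medians of 41.7 CPM in WT and 37.2 CPM in SOD1G93A mice (3 of 6 pairs higher). Those of Bag3 were 24.3 and 27.1 CPM (4 of 6), of Dnajb1 4.53 and 6.96 CPM (4 of 6) and of Hspb8 3.33 and 6.43 CPM (6 of 6). Hspa1a and Hspa1b were sparse, with 5 and 4 UMIs in WT and 14 and 11 in SOD1G93A mice. The 6 HSP70 genes tested had estimates of 0.02 to 0.51, with Hspa8 at 0.51 (adjusted p = 0.279) and Hspa5 at 0.49 (0.207). The 17 DNAJC genes had a median of −0.04. Dnajc19, a J-domain subunit of the mitochondrial import motor, was the 1 lower member at an unadjusted p under 0.05 (−0.39, adjusted p = 0.256) and was lower in all 6 pairs, followed by Dnajc15 (−0.33, 0.493) and Dnajc24 (−0.20, 0.616).

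**Figure D2:**
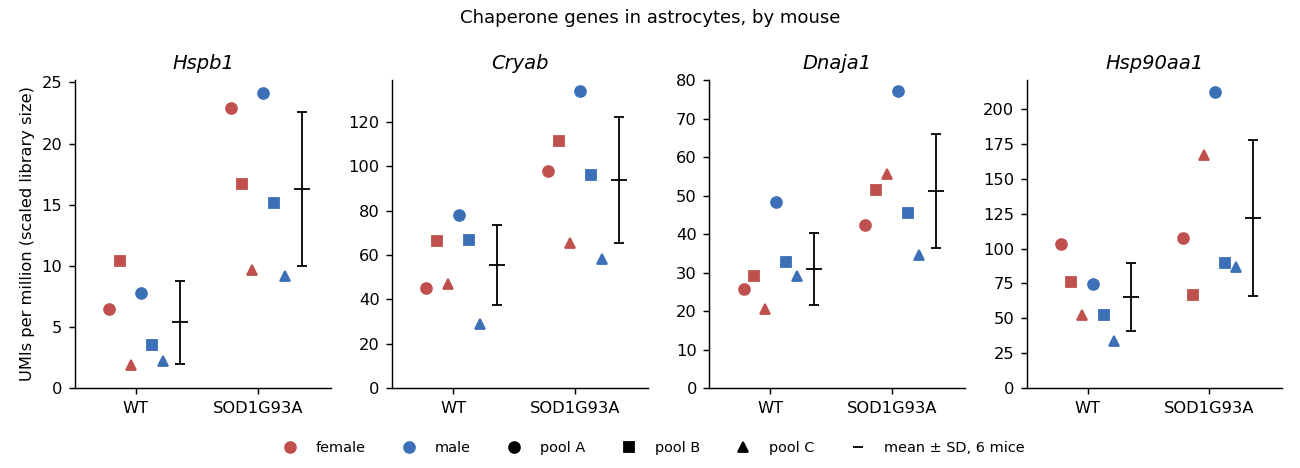
Levels of Hspb1, Cryab, Dnaja1 and Hsp90aa1 in astrocytes, in CPM with scaled library sizes, for each of 6 WT and 6 SOD1G93A mice (red, female; blue, male; circle, square and triangle for pools A, B and C; bar, mean ± SD). The groups overlap for each gene, and the SOD1G93A male of pool A is the highest mouse in every panel.

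Other measures in the astrocyte nuclei stood beside these results as follows. The median mitochondrial percent per mouse was 0.570 to 1.31 in WT and 1.12 to 2.33 in SOD1G93A mice. The oligodendrocyte markers Mbp and Mog summed to 601, 747 and 909 CPM (lowest, median and highest) in WT and 759, 1118 and 1509 CPM in SOD1G93A mice, against 2683 to 3805 CPM in WT oligodendrocytes, where Cryab was 25.7 to 68.4 CPM. Endothelial markers (Flt1, Cldn5 and Pdgfrb) summed to 15.5, 31.4 and 87.5 CPM in WT and 20.4, 42.9 and 71.1 CPM in SOD1G93A mice. In WT endothelial cells these markers summed to 5777 to 6309 CPM, and Hspb1 was 258 to 1347 CPM. The astrocyte markers Aqp4, Aldh1l1 and Gfap summed to 867 to 1122 CPM in WT and 1672 to 2225 CPM in SOD1G93A mice. In UMIs, not set per depth, Aqp4 had 3880 in WT and 5159 in SOD1G93A mice and Gfap 1418 and 2390. Aldh1l1 went the other way, with 450 and 319. The part of RNA from other cell types in the result was not tested. With mitochondrial percent as a covariate no member was called, with estimates of 1.55 for Hspb1, 0.90 for Cryab, 0.65 for Dnaja1 and 0.16 for Hsp90aa1. Without the pool term the adjusted p was 0.138 for Hspb1, 0.295 for Cryab and 0.177 for Dnaja1, and without pool A Cryab was the only member called. Hspb1 was called in 12 of 12 fits that left out 1 mouse. Without the SOD1G93A male of pool A it was the only member called, Cryab having an adjusted p of 0.109, and without the SOD1G93A female of pool A 7 were called. Dnaja1 was not called without the SOD1G93A females of pools B and C, the SOD1G93A male of pool A, the WT females of pools A and C or the WT males of pools B and C, each left out alone, with adjusted p of 0.126 to 0.295.

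In the other 8 cell types no member was called for genotype with limma (0 of 312 tests, against 0.0385% of all tests), and edgeR and DESeq2 gave 0 calls too. At an unadjusted p under 0.05 there were 11 (3.53%), against 5.26% of all tests. The lowest p among them belonged to Hspa8 in oligodendrocytes (0.40 ± 0.12, adjusted p = 0.793). In the 9 neuron sub-types 0 of 407 tests were called by limma, edgeR or DESeq2 (0.0252% of all), with 14 higher (3.44%, against 2.53%) and 1 lower (0.246%, against 2.01%) at an unadjusted p under 0.05. The smallest adjusted p were those of Hsp90aa1 in neurons of unclear sub-type (0.41 ± 0.12, adjusted p = 0.422) and in ventral excitatory neurons (0.52 ± 0.12, adjusted p = 0.439). The stress-inducible genes Hspa1a and Hspa1b had enough counts for a test in endothelial cells only, with adjusted p for genotype of 0.994 and 0.988. Ependymal cells and fibroblasts had 3 and 2 members tested.

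**Figure D3:**
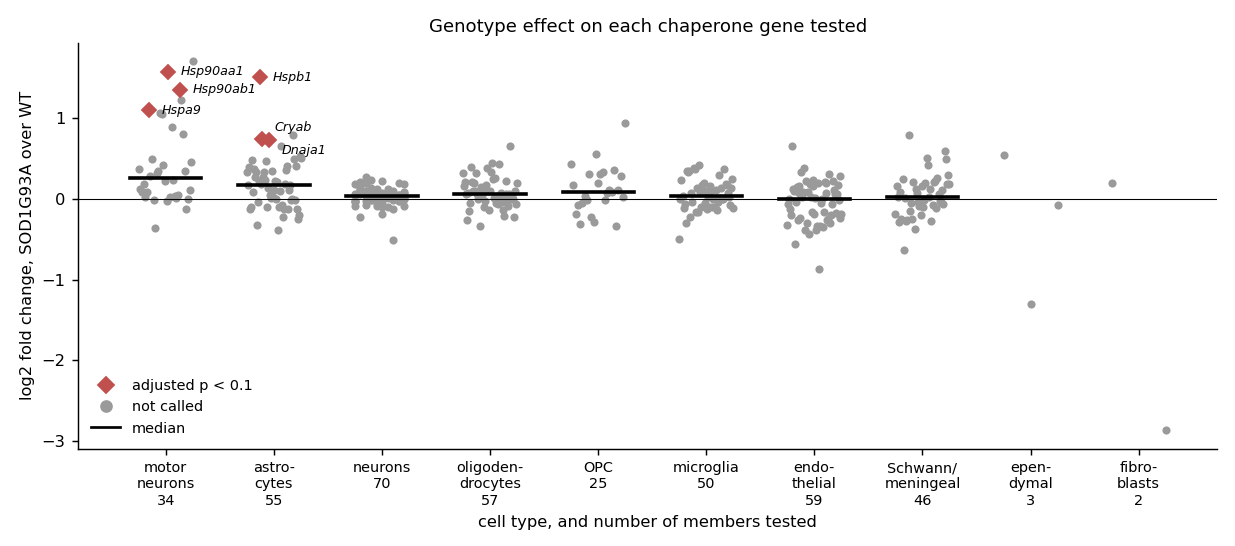
Genotype effect (log2 fold change of SOD1G93A over WT) on each member tested in each of the 10 cell types, with red diamonds for the 6 called members, grey circles for the others and a line for the median. The number of members tested stands under each type. Called members occur in motor neurons and astrocytes, and medians lie at 0.26 and 0.18 there and between 0.00 and 0.08 in the other 6 types with a median line, but 13 of the 34 members in motor neurons and 2 of the 55 in astrocytes passed the filter only through SOD1G93A mice.

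Genes of the same pathway outside the 88 were examined in a list of 57 regulators, co-chaperones, prefoldins, endoplasmic reticulum, clearance and immediate early genes. In astrocytes 46 were tested and 3 were higher in SOD1G93A mice, with none lower, where 1.38% of all genes were called higher. They were the immediate early gene Egr1 (1.93 ± 0.38, adjusted p = 0.0100), from 0 to 10.8 CPM in WT and from 8.35 to 30.8 CPM in SOD1G93A mice, the lectin chaperone Canx of the endoplasmic reticulum (0.50, adjusted p = 0.0554) and the prefoldin subunit Pfdn5 (0.80, adjusted p = 0.0584). Each was higher in 6 of 6 pairs. The filter on low counts asked for 13.3 CPM in 3 mice, which Egr1 met only through the SOD1G93A mice. The count of 3 therefore lends no support of its own. In motor neurons 17 were tested and none was called with limma, with 1 higher and 0 lower at an unadjusted p under 0.05, against 7.44% and 8.48% of all genes. None of those tested in the other 8 cell types was called for genotype. The heat-shock factor genes Hsf1 and Hsf2 had enough counts for a test in astrocytes, endothelial cells, microglia, neurons and oligodendrocytes and were not called there, and they were not tested in motor neurons.

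Between the sexes, 3 members differed, all lower in females and all in endothelial cells: the paired inducible HSP70 genes Hspa1a and Hspa1b and the HSP110 gene Hsph1. Of 59 members tested there, 3 were called lower in females (5.08%), against 0.105% of all 7637 genes, and 10 were lower at an unadjusted p under 0.05 (16.9%), against 2.75%. Of the 59, 6 passed the filter on low counts only through the males, Hspa1a and Hspa1b among them, and 1 only through the females, so that these counts lend no support of their own. Endothelial cells gave 21 to 65 nuclei and 180221 to 529083 UMIs per mouse.

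Hspa1a was at 0, 0.943 and 10.1 CPM (lowest, median and highest) in the 6 females and at 5.73, 58.1 and 106 CPM in the 6 males, or 6 and 141 UMIs. The log2 difference of females from males was −3.60 ± 0.63 (adjusted p = 0.0108). Hspa1b ran in parallel, with 0, 3.98 and 13.5 CPM in females, 3.82, 60.9 and 110 CPM in males and a difference of −2.97 ± 0.52 (adjusted p = 0.0108). Hsph1 had 15.1, 31.3 and 54.0 CPM in females and 26.7, 76.4 and 124 CPM in males (−1.18 ± 0.24, adjusted p = 0.0361).

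The high males were the 4 of pools A and B, of both genotypes. The males of pool C, at 5.73 and 8.91 CPM for Hspa1a and 3.82 and 8.91 CPM for Hspa1b, lay among the females. By pool, females against males had Hspa1a means of 0 against 83.3, 7.53 against 75.3 and 0.943 against 7.32 CPM, and Hsph1 means of 31.3 against 76.4, 39.3 against 111 and 24.2 against 28.7 CPM. The difference of the genotype effects between the sexes was −0.35 for Hspa1a (adjusted p = 1.00), so no call was made there. The next members by p, all lower in females and none called, were Dnaja1 (−1.02, adjusted p = 0.171), Hsp90aa1 (−0.85, 0.178), Hspa8 (−0.78, 0.315) and Hspa5 (−0.64, 0.405). Of the 45 genes of the pathway list tested in endothelial cells, 10 were lower and 0 higher in females at an unadjusted p under 0.05, where 2.75% of all genes were lower, and none was called.

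**Figure D4:**
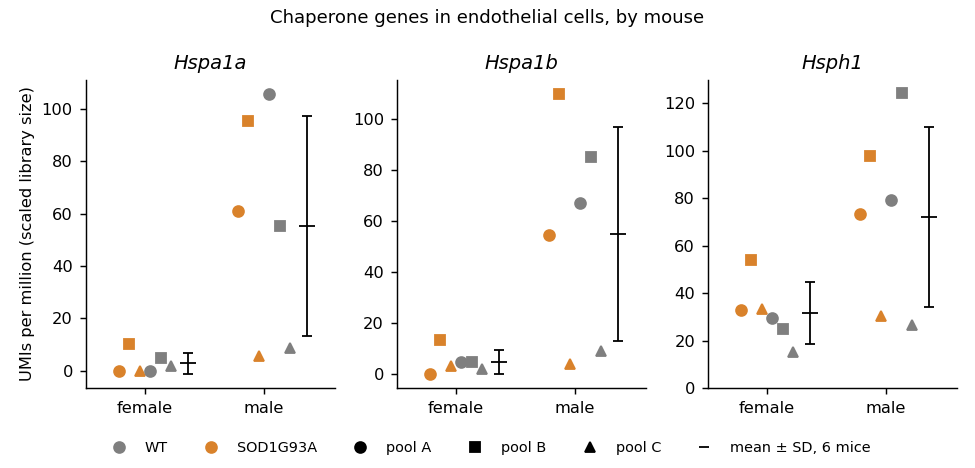
Levels of Hspa1a, Hspa1b and Hsph1 in endothelial cells, in CPM with scaled library sizes, for each of 6 female and 6 male mice (grey, WT; orange, SOD1G93A; circle, square and triangle for pools A, B and C; bar, mean ± SD). The 4 males of pools A and B lie above all other mice, and the 2 males of pool C lie among the females.

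Endothelial markers summed to 5260 to 6715 CPM in females and 5777 to 7200 CPM in males, and the median mitochondrial percent was 2.58 to 3.61 and 2.35 to 3.70. Apart from the hashtag, which differed between the sexes, whether the time or handling of each mouse differed was not tested. The sources used here give no such record. Outside endothelial cells Hspa1a was sparse, with 20 UMIs in females and 65 in males in neurons, 2 and 29 in oligodendrocytes, 1 and 15 in microglia, 8 and 37 in Schwann and meningeal cells and 7 and 12 in astrocytes. These UMIs are not set per depth. Mean levels of females and males were 0.290 and 0.714 CPM in neurons, 0.453 and 2.19 in oligodendrocytes and 0.0687 and 1.26 in microglia. They were 6.88 and 18.9 CPM in Schwann and meningeal cells, and 2.29 and 1.83 CPM in astrocytes, where females were higher. No member was called for sex in the other 9 types (0 of 342 tests with limma, against 0.152% of all tests). In neurons 7 members were lower in females at an unadjusted p under 0.05 (10%, against 1.35% of all genes) and none was called. They were Dnajb11 (−0.57, adjusted p = 0.348), Hspa5 (−0.38), Hsp90b1 (−0.32), Dnajc3 (−0.25), Dnajb1, Hsph1 and Hspa4.

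The calls for sex depended on single mice and on the pool term, without which none was made (adjusted p = 0.921 for each of the 3), and without pool A Hspa1b was the only one. Without the SOD1G93A female, the SOD1G93A male or the WT female of pool B no member was called, without the WT female of pool C 10 were and without the WT male of pool C 5 were. Hspa1b had adjusted p of 0.111 to 0.389 without those 3 mice of pool B. Hspa1a was not called without any SOD1G93A female, the SOD1G93A male of pool B, the WT females of pools A and B or the WT male of pool C, with adjusted p of 0.134 to 0.301. Hsph1 was not called without the SOD1G93A female or WT female of pool B or without any male of pools A and B, with adjusted p of 0.128 to 0.377. The estimates kept their sign in every such fit. For the difference of the genotype effects between males and females, 0 of 401 tests were called in the 10 cell types by limma, edgeR or DESeq2 (0.0058% of all tests), with 10 at an unadjusted p under 0.05 (2.49%, against 3.11%). The one in motor neurons with the lowest p was Hspb1 (2.70 ± 0.88, adjusted p = 0.714).

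In WT mice, motor neurons and the other neurons of the same mice differed in 6 of 63 members, 4 higher and 2 lower in motor neurons, against 17.1% and 15.6% of all 12736 genes. The balance of directions depended on scaling, since without scaling factors 2 were higher and 9 lower, and with no filter on low counts 32 were called. Bag3, which with Hspb8 and HSP70 sends misfolded proteins to autophagy, lay at 4.29, 33.6 and 49.2 CPM in motor neurons and 2.37, 3.44 and 4.14 CPM in other neurons. Every WT mouse was higher in motor neurons, and the log2 difference was 3.32 ± 0.33 (9.98-fold, adjusted p = 1.70e-05). The divergent HSP70 genes Hspa12a (1.04, adjusted p = 0.00158) and Hspa12b (1.08, 0.0916) and the HSP110 gene Hspa4l (0.33, 0.0904) were higher as well. Hsp90b1 (−0.93, adjusted p = 0.0287) and Dnajc6 (auxilin, which works with Hspa8 in uncoating clathrin vesicles; −0.26, 0.0909) were lower. Hspa12b, Hspa4l and Dnajc6 lost their calls in 4 or 5 of the 6 fits that left out 1 WT mouse.

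Across the 8 cell types with nuclei from all 6 WT mice, each member was compared between 1 type and the mean of the others. The names of 2 of these types need care. WT nuclei labelled microglia had medians of 57.5 CPM for microglia markers but 490 CPM for neuron markers (Grin1, Rbfox3 and Camk2a), 581 CPM for OPC markers (Tnr, Vcan and Cspg4; OPCs are oligodendrocyte precursor cells) and 1216 CPM for Mbp and Mog, and 13758.5 to 86937 UMIs per nucleus (median of each mouse). WT nuclei labelled Schwann and meningeal cells had medians of 122 CPM for Pmp22 and Prx, genes of myelinating Schwann cells, 502 CPM for astrocyte markers, 488 CPM for neuron markers and 2201 CPM for Mbp and Mog, the last within 1389 to 2835 CPM against 2683 to 3805 CPM in WT oligodendrocytes. The sum of microglia markers was still highest, by its median, in the nuclei labelled microglia among the 10 types. The lists hold different genes, so their sums compare only roughly with each other. Read across types, the neuron markers had a median of 805 CPM in WT neurons. The astrocyte markers had 998 CPM in WT astrocytes and the OPC markers 3349 CPM in WT OPCs. The part of RNA from other cell types in the levels of members in these nuclei was not tested. Of 61 members tested, 9 were higher in motor neurons than in the mean of the other types (against 29.8% of all 10263 genes), 7 in neurons (33.5%), 15 in astrocytes (27.5%), 13 in oligodendrocytes (29.2%), 5 in OPCs (26.6%), 9 in microglia (36.6%), 32 in endothelial cells (36.5%) and 40 in Schwann and meningeal cells (35.6%). As shares of 61 these were 14.8%, 11.5%, 24.6%, 21.3%, 8.2%, 14.8%, 52.5% and 65.6%. A member can be counted in several types, and a count does not mean that its level was highest there. Which of the 61 passed the filter on low counts only through a type where they were high was not examined. These counts and shares therefore lend no support of their own. The mitochondrial percent of WT mice had a median of 3.48 in endothelial cells and 1.97 in Schwann and meningeal cells. In the other types compared it was 0.074 (motor neurons) to 0.683 (astrocytes). The part of RNA from outside the nucleus in these counts was not tested.

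In motor neurons the largest difference from the mean of the other types was that of Hspa12a (45.4, 92.6 and 155 CPM; log2 difference 1.82 ± 0.17), followed by Bag3 (1.47 ± 0.23), and Hspb8, the small heat-shock partner of Bag3, was higher there too (1.27 ± 0.35, adjusted p = 0.00179). None of these 3 had its highest median in motor neurons. Hspa12a had 114 CPM in nuclei labelled Schwann and meningeal cells, Bag3 42.6 CPM in endothelial cells against 33.6 CPM in motor neurons, and Hspb8 24.4 against 5.69 CPM. Dnajc6 had the largest difference in neurons, at 319, 359 and 392 CPM (1.29), and in the nuclei labelled microglia, at 272, 332 and 375 CPM (1.08). In astrocytes the leading differences were those of Hspa2 (1.22) and the endoplasmic reticulum J-domain gene Dnajb9 (1.13), although the medians were higher in endothelial cells (29.8 CPM for Hspa2 and 53.6 CPM for Dnajb9) and in nuclei labelled Schwann and meningeal cells (12.7 and 88.3 CPM) than in astrocytes (7.35 and 31.2 CPM). The leading members were Hspb11 and the J-domain gene Dnajb2 (both 1.19) in oligodendrocytes, and Hspb11 (0.80) in OPCs.

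Endothelial cells stood out for Hspb1, at 258, 501 and 1347 CPM, where medians in the other 7 types were 0 to 44.3 CPM, with a log2 difference of 6.72 ± 0.30 (adjusted p = 3.08e-25). Hspa12b followed, at 216, 249 and 321 CPM against medians of 0 to 7.96 CPM elsewhere (5.95 ± 0.26, adjusted p = 3.46e-25). Among the 8 types, the nuclei labelled Schwann and meningeal cells had the highest medians of Hsp90aa1 (327, 559 and 905 CPM; 3.36 ± 0.16, adjusted p = 1.18e-22) and Hspa8 (386, 700 and 1153 CPM; 3.05 ± 0.16). For Hspa8, the endothelial range of 325 to 1353 CPM overlapped the Schwann and meningeal one, and the means were 708 and 702 CPM. These nuclei held few UMIs, with medians of 960 to 1852.5 per WT mouse, beside the markers of other types given above.

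**Figure D5:**
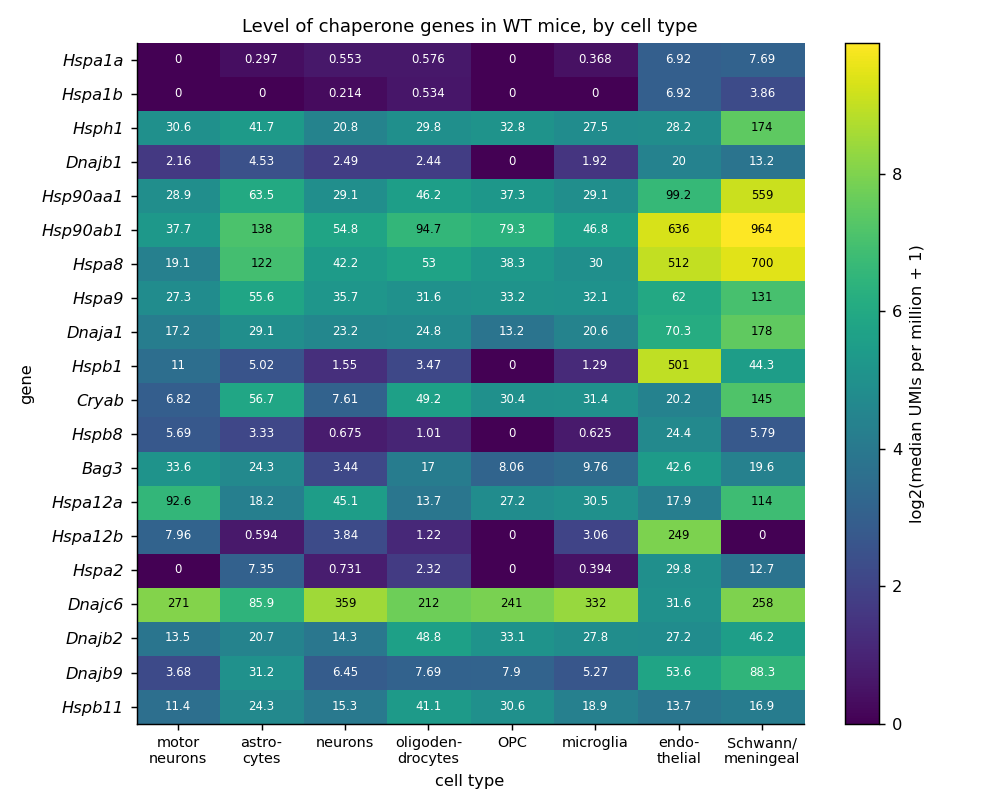
Median level over 6 WT mice, in CPM with scaled library sizes, of 20 members (rows) in 8 cell types as the authors named them (columns), coloured on a log2 scale after adding 1 and printed in each cell. Hspb1 (501) and Hspa12b (249) peak in endothelial cells, Hsp90aa1 (559) in Schwann and meningeal cells, and Bag3 stands at 33.6 in motor neurons against 3.44 in neurons.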

How the data were processed

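Per the labels and the methods, nuclei were isolated from lumbar spinal cord, marked by mouse with hashtags and sequenced on the 10x platform. The submitters' processing notes name bcl2fastq 2.20.0.422, Cell Ranger 3.1, STAR 2.5.1b, Seurat 4.0.3, R 4.0.3 and the mm10 build. The deposited counts are UMIs per gene and nucleus without normalization, from a pre-mRNA reference, after the authors removed nuclei with under 200 genes, over 10% mitochondrial UMIs or no single hashtag. The deposited mitochondrial percent of each nucleus, cell types and neuron sub-types were used as the authors gave them, and the table of integrated values was not used. Doublets within 1 mouse were not marked. Of the barcodes, 15 occurred in more than one pool, and barcodes were joined with their pool. In sub-type tests 27 neurons without a sub-type were left out.

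UMIs were summed per mouse and cell type. Genes were filtered with filterByExpr (edgeR 4.0.16, minimum count 10) and fitted with TMMwsp factors, voom, lmFit and robust eBayes (limma 3.58.1, R 4.3.3) with terms for each group of sex and genotype and for pool. Pools are the block, as in the study's methods: nuclei of the mice of 1 pool share capture, library preparation and sequencing. Whether their cords were also processed together is not stated. Contrasts were the mean genotype effect, the mean female minus male effect and their interaction. Fits over 2 or more cell types had a term per mouse. P-values were adjusted over all genes of a fit, with a threshold of 0.1, and the replicate is the mouse. Intervals and floors cover counting error only. Alternatives were edgeR's quasi-likelihood test, DESeq2 1.42.0, other filters and scalings, no pool term and leaving out each mouse. The genotype fit was tested on simulated counts for motor neurons, astrocytes and endothelial cells. The difference of genotype effects between 2 cell types and the comparison of 2 cell types in WT mice were tested likewise. The simulated counts held no pool effect. No other fit or contrast was tested with a simulated effect.

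Named are members called for genotype, sex or interaction, the 3 of smallest p in each direction in motor neurons and astrocytes, 9 stress-inducible genes (Hspa1a, Hspa1b, Hsph1, Dnajb1, Hsp90aa1, Hspb1, Cryab, Hspb8 and Bag3), the 2 leading called members of each type in WT mice, and pathway genes called for genotype. Other genes were chosen after their values were seen. Some marker sums and 1 pathway gene are not given in the text. The members and lists were chosen with earlier results of these data known. Promoters were read from a RefSeq table (GRCm38.p6), in which 71 of the 88 members were matched by symbol.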

Additional observations from a re-analysis of the deposited data

Results flagged for a closer look

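Among 22 groups of 6 mice examined for a value standing far from the rest, 2 held one, while chance gives about 1 in 20. In endothelial cells of females, Hspa1b was 13.5 CPM in the SOD1G93A female of pool B against 4.94 CPM in the next female. In motor neurons of SOD1G93A mice, Hspa9 was 188 CPM in the female of pool C, from 6 UMIs in 1 nucleus, against 85.4 CPM in the next mouse. Without that mouse the log2 fold change of Hspa9 was 0.985 (adjusted p = 0.172).

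The genotype effect differed between motor neurons and other neurons for 2 members. The difference was 1.45 on the log2 scale for Hsp90aa1 and 1.67 for Hspa8, by the interaction of cell type and genotype in limma.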

How the results depend on the processing

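No estimate of the genes refitted under the alternatives changed sign. In motor neurons, 3 members were called for genotype, 1 with a minimum count of 30, 0 without the pool term (the replicate block), and, chosen after seeing the data, 0 without pool A, 0 without the mice with under 3 nuclei and 1 with mitochondrial percent as a covariate. In astrocytes, where 3 were called, the count was 0 without the pool term, 1 without pool A and 0 with the covariate. DESeq2 gave 0 there because it returned an adjusted p for only 4 of the 55 members, and for none of the 3, so no call was lost to it. For sex, 3 were called, 6 with no filter on low counts, 0 with a minimum count of 30, 0 without the pool term and 1 without pool A. For the genotype effect in motor neurons minus that in neurons, 2 were called, 4 with DESeq2, 0 with no filter, 4 with a minimum count of 30, 4 without scaling factors and 1 without the robust option. Scaling moved the median of all genes in that comparison from 0.34 to 0.05. For WT motor neurons minus WT neurons, 6 were called, 32 with no filter and 11 without scaling factors. The latter were 2 higher and 9 lower, against 4 and 2 with scaling, so the balance of directions turned. Leaving out 1 mouse gave 1 to 5 calls in motor neurons, 1 to 7 in astrocytes, 0 to 10 for sex, 0 to 4 for motor neurons minus neurons and 0 to 1 for motor neurons minus astrocytes. The cause of these changes was not tested. The counts in the other cell types, the sub-types and the interaction were 0 under every alternative. Few motor neuron nuclei limit the precision there.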
